A study of Mus musculus with 4 samples.

Results

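The 35 genes described here encode proteins that bring secretory vesicles to the cell surface, hold them there and fuse them on demand. They comprise SNAREs, Rab GTPases and their effectors, synaptotagmins, active-zone scaffolds, priming factors and complexins. The genes were taken by symbol from a fixed list, without use of measured values, and all 35 were found among the 22564 genes of the table. RNA of pancreatic islets from newborn mice (postnatal day 0, strain 129sv) was sequenced in 4 libraries, 2 from islets labelled Mettl3/14nKO and 2 from islets labelled Wild-Type. Mettl3 and Mettl14 form the core of the enzyme that writes N6-methyladenosine (m6A) on RNA, and the stated purpose of the series was to look at RNA modifications. What was measured is transcript abundance, with no measure of methylation. The labels do not state what the letter n stands for, which promoter drove a deletion, which exons were removed, or whether islets of several animals were pooled. P-values here measure the spread between samples, which may be technical, since nothing states that the 2 libraries of a genotype came from separate animals.

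In endocrine cells, hormone granules are delivered to the plasma membrane by Rab GTPases and their effectors and are docked there by syntaxin, SNAP-25 and Munc18 proteins. Munc13 and CAPS proteins prime the granules, and entry of calcium, sensed by synaptotagmins and Doc2 proteins, lets the SNARE helices of granule and plasma membrane zip together and drive fusion. NSF and its adaptor alpha-SNAP then take the spent SNARE complexes apart. Beta cells of the islet use this machinery, shared in large part with neurons, to release insulin.

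The Mettl3/14nKO libraries held 1216498 and 744016 gene-assigned fragments, against 1255526 and 1617429 in wild-type, a shallow depth that limits what can be seen of low genes. The targeted genes passed no test. Mettl3 had 30 and 9 fragments in Mettl3/14nKO, against 20 and 47 in wild-type libraries, and Mettl14 had 24 and 12 against 32 and 54 (edgeR adjusted p = 0.849 and 0.308). In FPKM Mettl3 stood at 6.95 and 5.86 in Mettl3/14nKO, against 8.40 and 14.5 in wild-type islets, without overlap, while its fragments overlapped. Mettl14 stood at 3.75 and 2.66 FPKM in Mettl3/14nKO, against 5.06 and 7.55 in wild-type islets, also without overlap. Its fragments, not scaled for depth, did not overlap either (edgeR log2 fold change -0.71, SE 0.32). In FPKM 35.4% of genes with a mean of at least 1 FPKM were lower without overlap. Since the deleted exons are not stated, these transcript levels neither back nor contradict the labels. The tissue label was checked with markers, in CPM of fragments scaled with edgeR's TMM factors (scaled CPM). Summed over 6 beta-cell markers these came to 37453 and 47633 in Mettl3/14nKO, against 73085 and 76014 in wild-type libraries, and 5 alpha-cell markers came to 10521 and 14046 against 10330 and 8373. The 9 acinar markers in the table summed to 36.2 and 71.4 against 67.3 and 72.4 scaled CPM. Of other marker lists, 8 of 12 leukocyte markers rose (summed scaled CPM 345 and 668 in Mettl3/14nKO, against 44.6 and 114 in wild-type) and 6 of 8 mesenchymal markers rose (7679 and 5590, against 3681 and 2395). Of 9 endothelial markers 6 fell (451 and 291, against 1248 and 1061). In RNA of whole islets, fewer cells of a type and less RNA per cell cannot be told apart.

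Because Mettl3 and Mettl14 act on the consensus DRACH (A, G or T, then A or G, then A, then C, then A, C or T), of which GGACT is a common form, 25-base windows of the reference mRNA are shown around GGACT. Each holds the GGACT nearest the stop codon among those whose window crosses no exon boundary. Shown are the 4 genes with the smallest p-values, then the highest vesicle SNARE and the highest synaptotagmin. Capitals mark GGACT, and the sequences are those of the longest coding transcript in GENCODE M21 (build mm10), written 5′ to 3′ on the mRNA strand.
Rab3c: aaagaaagtgGGACTtttgctcttg
Snap25: gctggcatcaGGACTttggttatgt
Sytl4: gcgaagtggtGGACTggatggattc
Stx1a: agcacgccgtGGACTacgtggagag
Vamp2: tggggagtctGGACTtttggggaac
Syt13: acagtgagtgGGACTggcactcaga
The Rab3c window lies in the 3′ untranslated region at chr13:110061284-110061308 on the minus strand, with the A of GGACT 519 bases after the last base of the stop codon. The Snap25 window lies in the coding sequence at chr2:136763582-136763606 on the plus strand, with its A 485 bases before the last base of the stop codon. The Sytl4 window (chrX:133938014-133938038, minus strand) and the Stx1a window (chr5:135049028-135049052, plus strand) are also coding, 124 and 142 bases before that point. The Vamp2 window (chr11:69091397-69091421, plus strand) and the Syt13 window (chr2:92953860-92953884, plus strand) lie in 3′ untranslated sequence, 743 and 205 bases after it. These letters mark where the consensus occurs, and whether any of them carried m6A was not measured.

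The consensus was about as frequent in the exocytosis genes as in other islet genes, with motifs counted on the mRNA strand and compared by medians without a test. Their longest mRNAs held a median of 4 GGACT motifs, as did those of the 10863 tested genes with a coding transcript in the annotation. Per kilobase the median was 0.868 for the 32 tested exocytosis genes and 1.04 for all tested genes, and for DRACH it was 20.4 against 20.02. Rab3c had 7 GGACT motifs in a long mRNA of 8444 bases, all 7 in its 3′ untranslated region, while Snap25 had 1 in 2116 bases, Stx1a 4 in 2162 and Sytl4 5 in 3753. Across the 32 genes, GGACT per kilobase and the log2 fold change between genotypes had a Spearman rho of -0.35, given as a description of genes that share the same 4 libraries. That was the largest of the mRNA features compared. With the count of GGACT motifs rho was -0.23, and with DRACH per kilobase, the full consensus, it was 0.05.

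In wild-type islets the exocytosis genes spanned a wide range of levels, compared here per length as FPKM. In both wild-type libraries 21 of the 35 stood above 10 FPKM. The highest were the complexin gene Cplx2 at 113 and 123 FPKM and Sytl4, which encodes granuphilin, at 123 and 110 FPKM, and these did not differ beyond their spread. Next came Syt13 (83.2 and 93.8 FPKM), the Rab effector gene Rph3al (63.0 and 59.7), Vamp2 (53.3 and 52.5) and Rab27a (44.5 and 56.5), where Vamp2 and Rab27a overlapped. Snap25 (37.5 and 46.5), Syt7 (37.3 and 42.4) and Napa (37.9 and 41.1) overlapped each other. At the low end, Rims1 stood at 0.306 and 0.723 FPKM, while Unc13c was listed at 0 in wild-type replicate 1 and at 0.153 FPKM in replicate 2.

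**Figure D1:**
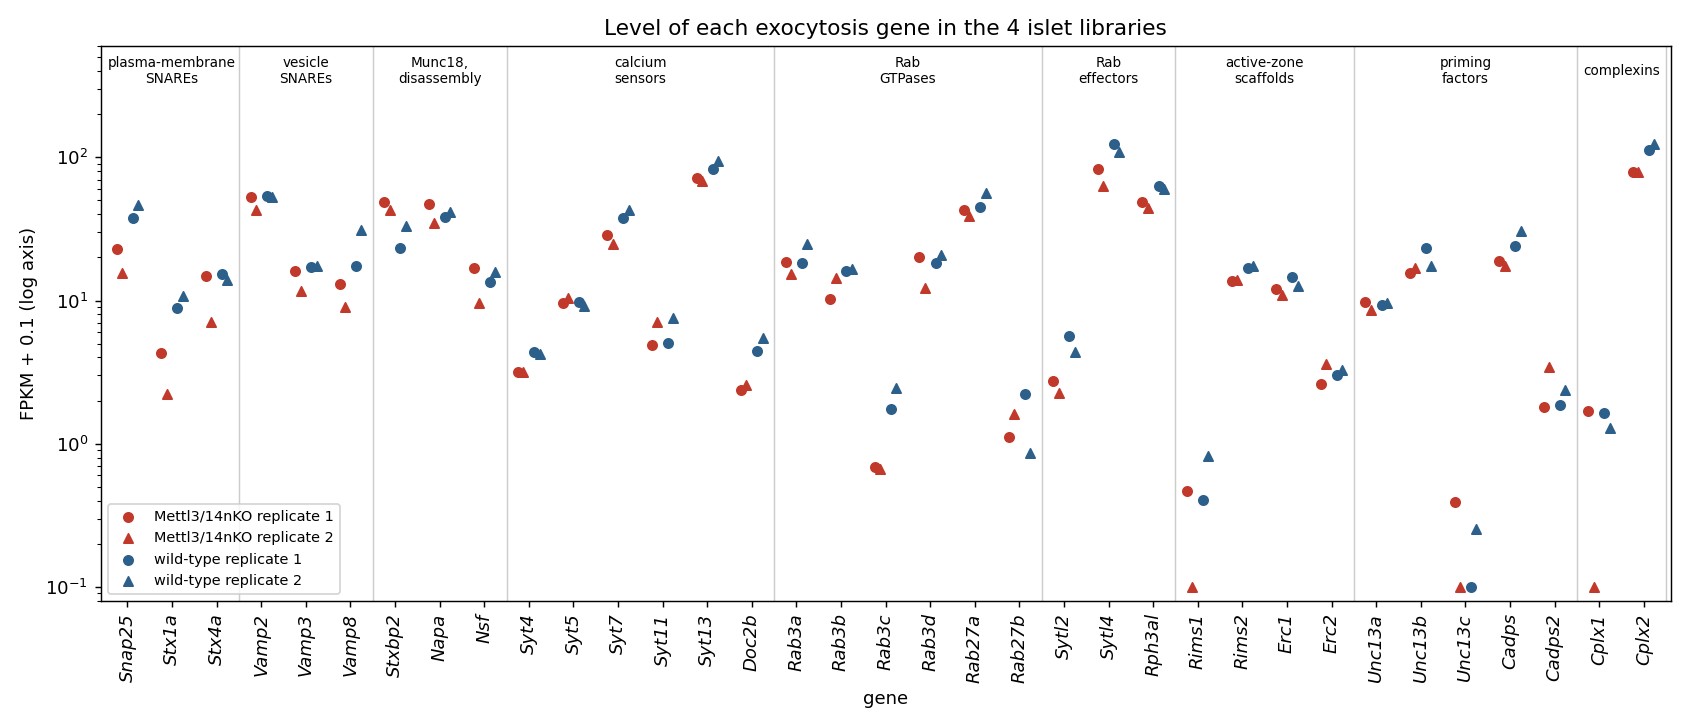
Level of each of the 35 exocytosis genes in FPKM + 0.1 on a log axis, with red symbols for the 2 Mettl3/14nKO libraries and blue symbols for the 2 wild-type libraries (circles replicate 1, triangles replicate 2); a symbol at the bottom edge of 0.1 is a value listed at 0. Cplx2, Sytl4 and Syt13 are the highest. Both red symbols lie below both blue ones in 19 of the 33 genes with a mean of at least 1 FPKM. Of all genes at that level 35.4% do so.

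Between genotypes, Rab3c fell and no other gene of the set passed. With edgeR's quasi-likelihood test on fragments, adjusted over 10956 genes, 1 of the 32 tested exocytosis genes was lower in Mettl3/14nKO islets, against 1.61% of all genes tested, and 0 were higher, against 2.1%. That share is near the background and is no result about the set. Without a filter on low counts 4 of 35 were lower, against 2.41% of genes, and without Mettl3/14nKO replicate 2 it was 3 of 32, against 2.46%. It was 0 when Mettl3/14nKO replicate 1 was dropped, against 1.14%. It was 1 when wild-type replicate 1 was dropped, against 1.46%, and 0 for wild-type replicate 2, against 0.271%. DESeq2 called 0 lower and 0 higher, against 0.311% and 0.572% of genes, and limma on log2(FPKM + 1) called 0 of the set, as of all genes (0.0%). At an unadjusted p under 0.05, edgeR had 10 of the 32 lower, a share of 31.3% against 7.79% of all genes tested, and 0 higher, against 8.16%. Those 10, by rising p, were Rab3c, Snap25, Sytl4, Stx1a, Syt7, Doc2b, Sytl2, Cplx2, Cadps and Rab3d. The count moved with the library left out, to 4 when Mettl3/14nKO replicate 1 was dropped (6.82% of all genes) and 10 when replicate 2 was (8.06%). When wild-type replicate 1 was dropped it was 8 (5.58%), and 5 for replicate 2 (4.66%). With DESeq2 it was 5 of 35 (2.05%), and with limma on log2(FPKM + 1) it was 10 of 33 (9.47%). Higher at that level were 0 of 35 with DESeq2 (2.63% of all genes) and 1 of 33 with limma (2.62%). Scaled CPM of both Mettl3/14nKO libraries lay below both wild-type libraries in 12 of the 32, or 37.5%, against 22.9% of all genes tested, and above both in 5, or 15.6%, against 22.3%. On the FPKM scale, 19 of the 33 with a mean of at least 1 FPKM lay below both wild-type libraries, against 35.4% of genes. The median log2 fold change was -0.13 for the 32 genes and 0.00 for all genes tested. Summed over all 35 genes, scaled CPM came to 4352 and 4820 in Mettl3/14nKO, against 5208 and 5286 in wild-type libraries.

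Neurons use the same machinery, and their markers were lower in the same libraries. Neuron markers summed to 127 and 100 scaled CPM in Mettl3/14nKO, against 251 and 228 in wild-type libraries, and 3 of the 6 tested fell with edgeR: Prph (log2 fold change -2.45, adjusted p = 0.00466), Stmn2 (-2.07, adjusted p = 0.00199) and Nefl (-2.02, adjusted p = 0.0262). The sympathetic marker Dbh had 0 and 0 fragments in Mettl3/14nKO, against 0 and 1 in wild-type libraries, and Elavl4 had a log2 fold change of 0.00. Of the 6 beta-cell markers, Ins1 (-0.64, adjusted p = 0.0412), Ins2 (-0.94, adjusted p = 0.00669) and Iapp (-0.95, adjusted p = 0.0074) fell, while Nkx6-1 stood at -0.10 (adjusted p = 0.782), G6pc2 at -0.35 (adjusted p = 0.293) and Slc2a2 at 0.29 (adjusted p = 0.575). The part of these cell types in the values of the exocytosis genes was not tested.

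**Figure D2:**
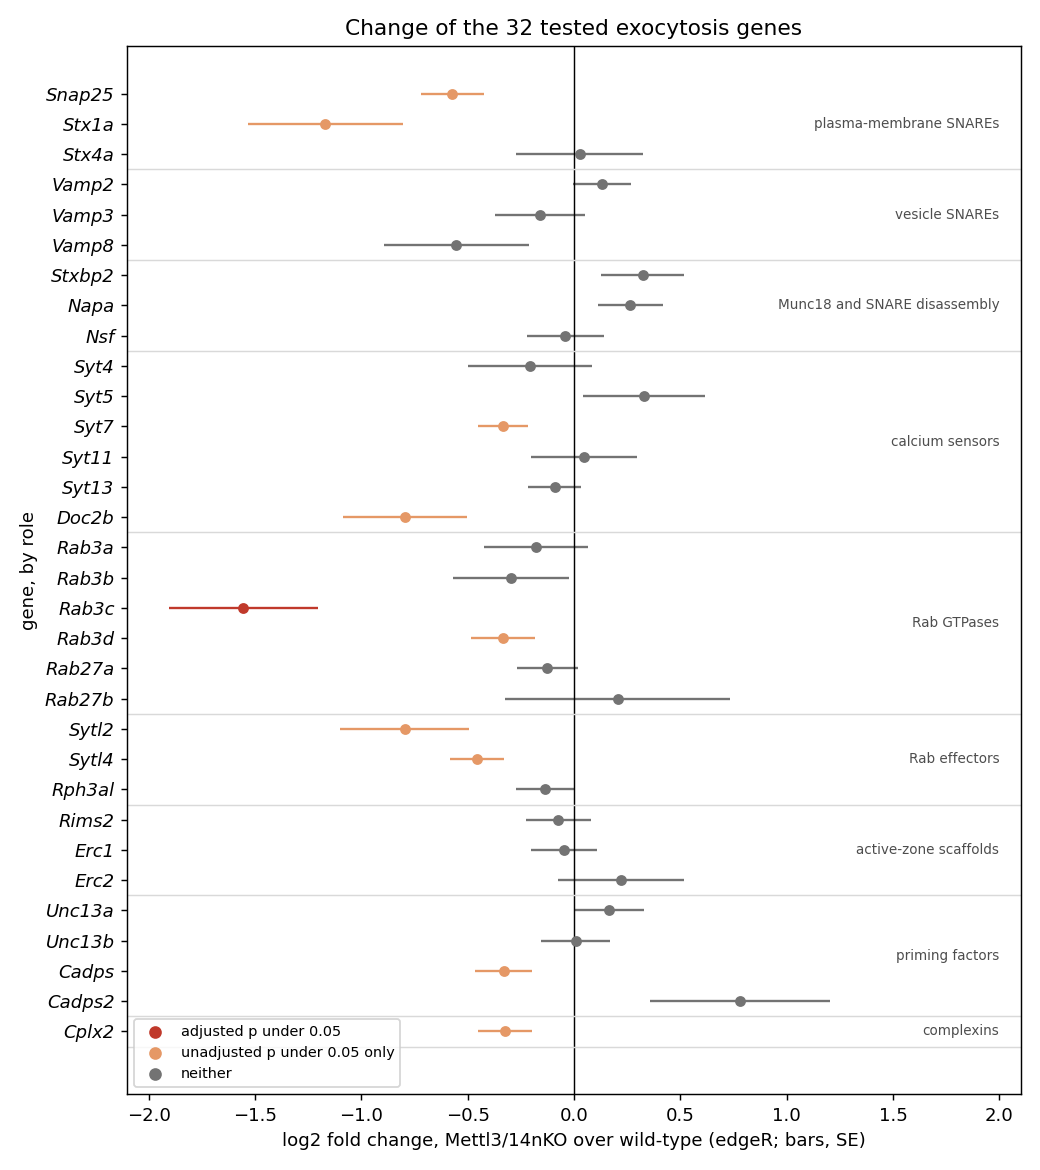
edgeR log2 fold changes, Mettl3/14nKO over wild-type, of the 32 exocytosis genes tested, by role from top to bottom; bars are standard errors and colour marks the p-value reached. Rab3c, at -1.55, is the one gene past an adjusted p of 0.05, and the 10 coloured genes all lie left of 0.

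Among SNAREs of the plasma membrane, Snap25 and Stx1a were lower in both Mettl3/14nKO libraries but did not pass, and Stx4a showed no separation. Snap25 (ENSMUSG00000027273, mm10 chr2:136713453-136782428), whose product contributes a pair of helices to the SNARE bundle, stood at 22.8 and 15.5 FPKM in Mettl3/14nKO, against 37.5 and 46.5 FPKM in wild-type islets. In scaled CPM it had 116 and 104 in Mettl3/14nKO, against 161 and 168 in wild-type libraries, with no overlap of the groups. The difference came to -0.57 on the log2 scale (SE 0.15, adjusted p = 0.0548, edgeR). Stx1a (ENSMUSG00000007207, chr5:135023482-135051100), the neuronal syntaxin that pairs with SNAP-25, had 4.22 and 2.13 FPKM in Mettl3/14nKO, against 8.72 and 10.6 FPKM in wild-type islets. Behind these were 22 and 6 fragments in Mettl3/14nKO, against 40 and 50 in wild-type libraries, and both Mettl3/14nKO libraries were low. The log2 fold change of Stx1a was -1.17 (SE 0.37, adjusted p = 0.11) with edgeR, -1.94 without Mettl3/14nKO replicate 1 and -0.81 without Mettl3/14nKO replicate 2. Both genes passed when genes with few fragments were not filtered out, with adjusted p of 0.0169 for Snap25 and 0.0199 for Stx1a. Stx4a, the widely expressed syntaxin that also serves insulin granules, had 35.4 and 23.3 scaled CPM in Mettl3/14nKO, against 30.8 and 28.7 in wild-type libraries (log2 fold change 0.03, SE 0.30, adjusted p = 0.984). The sign of the Stx4a value turned under several settings. Of the summed FPKM of both syntaxins, Stx1a took 22.3% and 23.3% in Mettl3/14nKO, against 36.6% and 43.5% in wild-type islets, 2 pairs that do not overlap, although 2 libraries a genotype allow no exact two-sided permutation p under 0.333.

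Of the vesicle SNAREs none passed. Vamp2, the principal SNARE of insulin granules, had 182 and 205 scaled CPM in Mettl3/14nKO, against 178 and 172 in wild-type libraries (log2 fold change 0.13, SE 0.14, adjusted p = 0.736, edgeR). In FPKM the direction was opposite, with 53.1 and 42.5 in Mettl3/14nKO, against 53.3 and 52.5 in wild-type islets. Over all genes the median difference in log2(FPKM + 1) was -0.21, so FPKM values were lower in Mettl3/14nKO for the typical gene. Vamp3, or cellubrevin, a widely expressed SNARE of recycling vesicles, had 58.4 and 54.9 scaled CPM in Mettl3/14nKO, against 68.9 and 58.7 in wild-type libraries. Vamp8, a SNARE of zymogen granules and endosomes, had 25.5 and 19.2 scaled CPM in Mettl3/14nKO, against 24.3 and 41.8 in wild-type libraries, so the wild-type pair was spread widely and the groups overlapped (log2 fold change -0.55, SE 0.34, adjusted p = 0.498). Vamp8 is also used by acinar cells and leukocytes, whose summed markers stood at 36.2 and 71.4 against 67.3 and 72.4 and at 345 and 668 against 44.6 and 114 scaled CPM.

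The genes for SNARE assembly and disassembly did not pass the test. Stxbp2, a Munc18 protein best known in epithelial and blood cells, had 74.0 and 72.8 scaled CPM in Mettl3/14nKO, against 60.8 and 56.8 in wild-type libraries. The log2 difference of Stxbp2 was 0.32 (SE 0.19, adjusted p = 0.481, edgeR). In FPKM it stood at 48.5 and 43.1 in Mettl3/14nKO, against 23.2 and 33.0 in wild-type islets, the one gene of the set higher without overlap on that scale, against 9.83% of the genes with a mean of at least 1 FPKM. The FPKM carried by 1 scaled CPM of Stxbp2 differed 1.72 times between the libraries. Both scales put the gene higher in Mettl3/14nKO, but by different amounts, with a ratio of means of 1.63 in FPKM and 1.25 in scaled CPM. Such gaps were not particular to Stxbp2, and came to 1.87 for Snap25, 1.83 for Nsf, 1.78 for Rab3d and 1.75 for Cadps2. Leukocyte markers, at 345 and 668 against 44.6 and 114 scaled CPM, were higher in the same libraries, and their part in Stxbp2 was not tested. Napa, the gene for alpha-SNAP, had 187 and 172 scaled CPM in Mettl3/14nKO, against 134 and 164 in wild-type libraries (log2 fold change 0.27, SE 0.15, adjusted p = 0.447). Nsf, the ATPase that alpha-SNAP recruits, had 83.1 and 86.5 against 79.5 and 93.6 scaled CPM.

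Of the synaptotagmins and Doc2b, 0 of 6 passed. Syt13, an atypical synaptotagmin that does not sense calcium, had 553 and 641 scaled CPM in Mettl3/14nKO, against 628 and 640 in wild-type libraries (log2 fold change -0.09, SE 0.12, adjusted p = 0.811, edgeR). Syt7, a high-affinity calcium sensor of insulin granules, had 387 and 407 scaled CPM in Mettl3/14nKO, against 491 and 506 in wild-type libraries. The Syt7 groups did not overlap, and the log2 fold change of -0.33 did not pass (SE 0.12, adjusted p = 0.17). Doc2b, a calcium-binding partner of Munc13 and syntaxin, had 20.6 and 27.5 scaled CPM in Mettl3/14nKO, against 38.1 and 43.1 in wild-type libraries (log2 fold change -0.79, SE 0.29, adjusted p = 0.183). Syt4, which lacks calcium binding and is linked to beta-cell maturation, had 24.7 and 30.2 against 33.3 and 29.3 scaled CPM, and Syt11 had 41.1 and 53.6 against 43.8 and 46.2. Syt5, a vesicle synaptotagmin, had 32.1 and 42.6 scaled CPM in Mettl3/14nKO, against 31.6 and 26.8 in wild-type libraries (log2 fold change 0.33, SE 0.29, adjusted p = 0.666). Within the summed FPKM of these synaptotagmins, Syt13 held 60.7% and 60.0% in Mettl3/14nKO, against 59.7% and 59.8% in wild-type islets. Syt7 took 24.5% and 21.9% in Mettl3/14nKO, against 26.8% and 27.04% in wild-type islets, and Syt5 took 8.11% and 9.18%, against 6.95% and 5.81%. The shares of these 3 genes did not overlap between genotypes, lower in Mettl3/14nKO for Syt7 and higher for Syt5 and, by a small margin, Syt13. Those of Syt4 and Syt11 overlapped. With 2 libraries a genotype such a separation cannot pass an exact test, and no share over other gene families was computed beside it.

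Among the Rab GTPases Rab3c fell, and its more abundant relatives did not pass. Rab3c (ENSMUSG00000021700, chr13:110054187-110280996), a paralog of the synaptic vesicle GTPase Rab3a, had 13 and 9 fragments in Mettl3/14nKO, against 36 and 60 in wild-type libraries. That equals 10.7 and 12.4 scaled CPM in Mettl3/14nKO, against 29.2 and 37.5 in wild-type libraries, and both Mettl3/14nKO libraries were below both wild-type ones. The log2 fold change was -1.55 (SE 0.35, adjusted p = 0.0273, edgeR). The call was lost when either Mettl3/14nKO replicate 1 (-1.44, adjusted p = 0.156) or wild-type replicate 2 (-1.35, adjusted p = 0.303) was left out, with DESeq2 (-1.55, adjusted p = 0.505) and with limma on log2(FPKM + 1) (-0.92, adjusted p = 0.413). The neuron markers, of which 3 of 6 fell, stood at 127 and 100 against 251 and 228 scaled CPM in the same libraries, and their part in the fall of Rab3c was not tested. Rab3c was a minor member of its family, with 1.19% and 1.33% of the summed Rab3 FPKM in Mettl3/14nKO, against 3.07% and 3.64% in wild-type islets. Rab3d, a Rab of zymogen and other large granules, had 109 and 118 scaled CPM in Mettl3/14nKO, against 140 and 145 in wild-type libraries (log2 fold change -0.33, SE 0.15, adjusted p = 0.303). Rab3a had 41.9 and 46.7 against 44.6 and 54.3 scaled CPM, and Rab3b 29.6 and 38.5 against 42.2 and 40.0. Rab27a, which tethers insulin granules through granuphilin and other effectors, had 226 and 275 scaled CPM in Mettl3/14nKO, against 251 and 289 in wild-type libraries, with overlap (log2 fold change -0.12, SE 0.14, adjusted p = 0.764). Its paralog Rab27b took 1.33% to 4.52% of their summed FPKM over the 4 libraries and had 10 and 9 against 14 and 10 fragments.

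The plot of paralog shares sets these families side by side. In some families, such as the complexins and the granuphilin pair, 1 gene supplied nearly all of the summed FPKM in every library, while in others, such as the Rab3 genes, the sum was divided among several. Cplx2 held 98.0% and 100% of the complexin sum in Mettl3/14nKO, against 98.7% and 99.04% in wild-type islets, and Sytl4 held 96.9% and 96.7% of its sum with Sytl2, against 95.7% and 96.2%. Vamp2 made up 64.7% and 67.4% of the vesicle SNARE sum in Mettl3/14nKO, against 60.8% and 52.1% in wild-type islets. Cadps held 91.7% and 84.0% of the CAPS sum in Mettl3/14nKO, against 93.1% and 93.0% in wild-type islets. The pairs for Vamp2, Cadps and Sytl4 did not overlap, while those for Cplx2 did. Like the syntaxin shares, they cannot pass an exact test with 2 libraries a genotype.

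None of the Rab effectors passed. Sytl4 (ENSMUSG00000031255, chrX:133936385-133981812) encodes granuphilin, which links Rab27a and Rab3a on the insulin granule to syntaxin and Munc18. It stood at 252 and 277 scaled CPM in Mettl3/14nKO, against 357 and 366 in wild-type libraries, and the groups were well apart. Granuphilin RNA thus differed by -0.46 on the log2 scale (SE 0.13, adjusted p = 0.0669, edgeR). With Mettl3/14nKO replicate 2 left out Sytl4 passed (-0.52, adjusted p = 0.0359), as it did when low counts were not filtered (-0.47, adjusted p = 0.0204). Sytl2, a second Rab27 effector of the same family, had 23.0 and 22.0 scaled CPM in Mettl3/14nKO, against 46.2 and 33.1 in wild-type libraries (log2 fold change -0.80, SE 0.30, adjusted p = 0.201). Rph3al, which encodes the Rab3 and Rab27 effector Noc2, had 202 and 220 against 247 and 216 scaled CPM (log2 fold change -0.14, SE 0.14, adjusted p = 0.718).

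Of the active-zone scaffolds, which hold vesicles near calcium channels, 0 of 3 tested passed. Rims2 stood above Rims1 in every library. Rims3, a RIM gene outside the set, was higher still, at 22.0 and 22.0 FPKM in wild-type islets, against 16.7 and 17.4 for Rims2. Rims2 had 136 and 168 scaled CPM in Mettl3/14nKO, against 162 and 154 in wild-type libraries (log2 fold change -0.07, SE 0.15, adjusted p = 0.888, edgeR). Erc1, the scaffold ELKS, had 129 and 115 against 133 and 122 scaled CPM, and its brain-enriched paralog Erc2 had 32.1 and 54.9 against 36.5 and 35.6 (log2 fold change 0.22, SE 0.30, adjusted p = 0.807). Rims1 was not tested, with 2 fragments summed over Mettl3/14nKO and 11 over wild-type libraries, a ratio of 0.266 with an exact 95% counting interval of 0.0287 to 1.22.

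Of the priming factors, 0 of 4 tested passed. Cadps, which encodes CAPS, an activator of dense-core granule priming, had 217 and 244 scaled CPM in Mettl3/14nKO, against 268 and 308 in wild-type libraries (log2 fold change -0.33, SE 0.14, adjusted p = 0.242, edgeR). Cadps2, the second CAPS gene, had 14.8 and 28.8 against 12.98 and 11.2 scaled CPM (log2 fold change 0.78, SE 0.42, adjusted p = 0.415), and Mettl3/14nKO replicate 2 was far above the other libraries. Unc13a had 148 and 119 against 128 and 114 scaled CPM and Unc13b 109 and 133 against 118 and 120, both Munc13 genes with overlap between groups. Their log2 fold changes were 0.17 (SE 0.16, adjusted p = 0.713) and 0.01 (SE 0.16, adjusted p = 0.989). The Unc13a locus shares 495 exonic bases with Colgalt1 on the opposite strand. Unc13c was not tested, with 5 fragments summed over Mettl3/14nKO and 4 over wild-type libraries (ratio 1.83, interval 0.394 to 9.23).

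Complexins, which clamp and then promote SNARE-driven fusion, were almost wholly Cplx2 in newborn islets. Cplx2 had 819 and 986 scaled CPM in Mettl3/14nKO, against 1134 and 1118 in wild-type libraries, without overlap. On the log2 scale the difference was -0.32 (SE 0.13, adjusted p = 0.219, edgeR), and it passed without Mettl3/14nKO replicate 2 (-0.46, adjusted p = 0.0432). Cplx1 was too low to test, with 1 fragment summed over Mettl3/14nKO and 14 over wild-type libraries, a ratio of 0.105 with an exact 95% counting interval of 0.00248 to 0.688 that covers counting error only. In FPKM Cplx1 was listed at 1.60 and 0 in Mettl3/14nKO, against 1.54 and 1.19 in wild-type islets, so 1 fragment in Mettl3/14nKO replicate 1 was given the FPKM of 8 fragments in wild-type replicate 1.

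The plot of fits with 1 library left out gathers the 10 genes at an unadjusted p under 0.05. In all 10 both Mettl3/14nKO libraries lay below both wild-type libraries in scaled CPM, so dropping 1 library leaves the direction as it is and its sign shows no stability. The genes past an adjusted p of 0.05 changed with the library dropped.

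**Figure D3:**
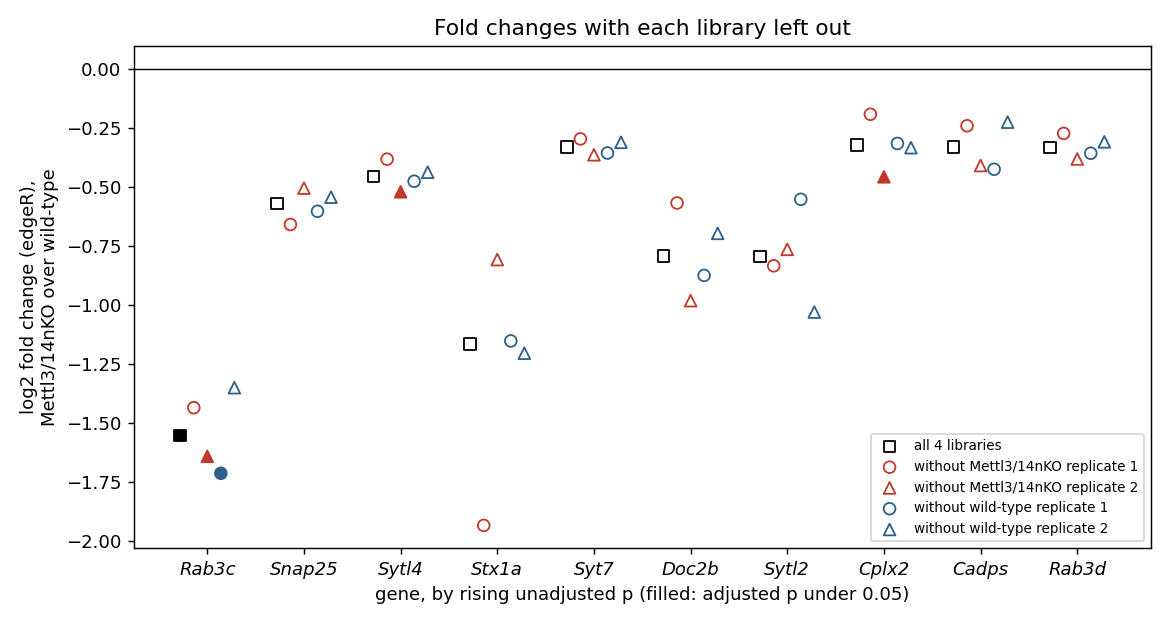
edgeR log2 fold changes, Mettl3/14nKO over wild-type, of the 10 exocytosis genes at an unadjusted p under 0.05, with all libraries and with each library left out; filled symbols reached an adjusted p under 0.05. Rab3c ranges from -1.35 to -1.71 over the fits with a library left out, and Stx1a ranges from -0.81 to -1.94.

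Beyond the set, 65 other genes of regulated exocytosis and 22 SNARE genes of intracellular transport were read from the same fit. Of the 44 regulated-exocytosis genes tested, 1 fell and 0 rose, against 1.61% and 2.1% of all genes tested (median log2 fold change -0.11). The one that fell was Syt9, a calcium sensor of dense-core granules, with 18.1 and 19.2 scaled CPM in Mettl3/14nKO, against 43.0 and 49.9 in wild-type libraries. Syt9 fell by 1.32 on the log2 scale (SE 0.29, adjusted p = 0.0242, edgeR), and the call was lost without Mettl3/14nKO replicate 1 (adjusted p = 0.118) or wild-type replicate 2 (adjusted p = 0.228), with DESeq2 (adjusted p = 0.414) and with limma (adjusted p = 0.172). At an unadjusted p under 0.05, 4 of the 44 were lower, a share of 9.09% against 7.79% of all genes tested, which is near the background. Scaled CPM of both Mettl3/14nKO libraries lay below both wild-type libraries in 36.4% of the 44, against 22.9% of all genes tested. It lay above both in 15.9%, against 22.3%. Those shares were close to the 37.5% and 15.6% of the exocytosis set. Of the 22 intracellular SNARE genes 0 passed, and 0 had an unadjusted p under 0.05 with edgeR or DESeq2 (median edgeR log2 fold change -0.07). With limma on log2(FPKM + 1) 3 were lower at that level, a share of 13.6% against 9.47% of all genes. Scaled CPM of both Mettl3/14nKO libraries lay below both wild-type libraries in 31.8% of the 22 and above both in 9.09%, against the same 22.9% and 22.3%. The smallest p-values there belonged to Stx7, a syntaxin of late endosomes (log2 fold change -0.43, SE 0.22, adjusted p = 0.379), and Stx18, a syntaxin of the endoplasmic reticulum (-0.53, SE 0.30, adjusted p = 0.455).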

How the data were processed

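Per the labels' protocols, ribosomal RNA was removed from total islet RNA and directional paired-end libraries were sequenced. Tools listed in the submitters' processing notes are HISAT2 2.0.4, cutadapt 1.9.3, Cuffdiff and Cufflinks, with build mm10. Neither the annotation release nor filters or strand handling is given in the sources used. The authors deposited FPKM and estimated counts per library. The estimated counts deposited by the authors are not whole, but each library has a common step, and 91.9 to 92.8% of its values divided by the step come within 0.01 of a whole number. They were divided by that step and rounded to fragments. Fragments and FPKM of 1 symbol were summed.

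The main test was edgeR 4.0.16 (quasi-likelihood, TMM factors, filterByExpr, R 4.3.3), fitted on the whole table with Benjamini-Hochberg adjustment at 0.05, two-sided, and with a standard error taken from the F statistic. All 4 libraries entered. The filter level was 8.09 CPM; 32 of the 35 genes passed it, 30 of them in every library, Stx1a not in Mettl3/14nKO replicate 2 and Rab27b not in wild-type replicate 2. Alternatives were DESeq2 1.42.0, limma 3.58.1 on log2(FPKM + 1), and other filters, scalings and libraries. Scripts were tested on simulated fragments. Intervals cover counting error only.

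Loci and transcripts came from GENCODE M21 on mm10. Exons of 10 of the 35 genes overlap another gene. In all but Rab27a the other gene lies on the opposite strand, so their counts are uncertain where strand was not used. Rab27a shares 149 bases with the pseudogene Gm27186 on the same strand, which use of strand would not resolve. The longest overlaps were 1919 bases in Erc1 and 566 in Syt4. The members, lists and tests were chosen with earlier results of these data known. All 35 genes are named; full statistics go to called genes and, in each role group, to the highest gene and the one with the smallest p.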

Additional observations from a re-analysis of the deposited data

How the results depend on the processing

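Of the 416 values of the 32 tested genes under 13 alternatives, 366 kept their direction and their side of the threshold, 6 lost a call, 5 gained one and 39 changed sign. The exocytosis genes called lower, 1 with edgeR, numbered 4 without a filter on low counts, 0 with DESeq2 and 0 with limma at either pseudocount and without a filter, and 0 to 3 with a library left out. Among all genes, against 230 higher and 176 lower with edgeR, 469 higher and 388 lower passed without a filter, 92 and 50 with DESeq2, 0 and 0 with limma (1477 genes at an unadjusted p under 0.05), and 44 to 390 higher and 31 to 285 lower with a library left out. The other regulated-exocytosis genes lower numbered 3 without a filter, 0 with DESeq2 or limma, and 0 to 2 with a library left out. The cause was not tested.

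With limma on log2(FPKM + 1), filtered or not, signs turned for Stx4a (-0.46), Vamp2 (-0.15), Syt11 (-0.060), Rab27b (-0.060), Erc2 (-0.023), Unc13a (-0.039) and Unc13b (-0.29), and with a pseudocount of 0.1 these were -0.50, -0.15, -0.068, -0.047, -0.034, -0.043 and -0.31. Stx4a also stood at -0.0044 with DESeq2 and -0.018 with the replicate block, and Unc13b at -0.0100 without a filter. With a library left out, the log2 fold change ran from -0.35 to 0.25 for Stx4a, -0.15 to 0.088 for Nsf, -0.13 to 0.25 for Syt11, -0.20 to 0.015 for Syt13, -0.26 to 0.019 for Rab27a, -0.19 to 0.67 for Rab27b, -0.22 to 0.086 for Rims2, -0.14 to 0.024 for Erc1, -0.17 to 0.61 for Erc2, -0.014 to 0.30 for Unc13a and -0.13 to 0.16 for Unc13b. None of these was called.

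The replicate numbers of the labels are shared between genotypes, and deviations of same-numbered libraries correlated at 0.0261 across 10956 genes. A value taken over all genes cannot show whether same-numbered libraries were paired, since a pairing may act on few genes. With the replicate block 1 exocytosis gene fell, Rab3c (-1.51, adjusted p = 0.0373), and 215 genes were higher and 166 lower. Low genes are limited by depth, with 744016 fragments in the shallowest library.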
